A study of Homo sapiens with 13 samples.

Results

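The 80 genes described here encode the proteins of the cytosolic ribosome, the machine that translates nuclear messenger RNA into protein. They are the rows of a table of 38616 genes whose symbol begins with RPL or RPS followed by a number, with at most 1 closing A, X or L and 1 further digit, together with RPLP0, RPLP1, RPLP2 and RPSA. Of these, 50 belong to the large (60S) subunit and 30 to the small (40S) subunit, and pseudogenes were left out. RPL7A, RPS18, RPS25 and RPL10L were not analysed here, and FAU, RACK1 and RPL36AL, which are ribosomal but named otherwise, are given separately. RNA was sequenced from MDA-MB-231 cells, an established human triple-negative breast cancer line, after lentiviral infection and selection of stable lines: VIRMA (KIAA1429) knockout lines labelled sg2 and sg1, called guides here, and a non-targeting control (NTC), with 3 libraries each. An m6A pull-down (MeRIP-seq) was made from VIRMA-depleted cells labelled KD and from NTC cells, with 1 summit list per condition. The labels do not say whether a line is a clone or a pool, or whether the libraries of a line are separate cultures.

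A ribosome holds 1 copy of most of its proteins, and growing cells therefore make these proteins in matched amounts. Most of their messenger RNAs begin with a C followed by a run of pyrimidines, the 5′ terminal oligopyrimidine (TOP) tract, through which mTORC1 and the RNA-binding protein LARP1 control their translation and stability. VIRMA is a scaffold of the nuclear complex that writes N6-methyladenosine (m6A), a mark found mostly in long internal exons and near stop codons. Cytosolic ribosomal protein messages are short, with short exons.

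Start sequences were read from RefSeq promoters on GRCh38.p14 for the 63 members that have one there, each as 15 bases before and 15 bases from the annotated start. The 6 members with the largest difference between the guides are shown where a start is given, on the transcribed strand. RPL36A and RPS9 are shown beside them. Their differences between the guides were near 0, were not called and changed sign with 1 library left out, and RPS9 had few counts. A pyrimidine run that begins with C at the start is found in RPL36A, in RPS9 and in some of the others. The genes shown were picked by their differences, and a link of those differences to the start sequence was not tested. Capitals mark the pyrimidine run that begins with C at the start site, where that run holds at least 5 bases. RPS21 lies at chr20:62387088-62387117 (+), RPL27 at chr17:42998404-42998433 (+), RPS7 at chr2:3575245-3575274 (+), RPS16 at chr19:39435935-39435964 (-), RPL39 at chrX:119791616-119791645 (-), RPL36A at chrX:101390996-101391025 (+) and RPS9 at chr19:54200843-54200872 (+).
RPS21: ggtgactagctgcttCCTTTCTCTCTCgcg
RPL27: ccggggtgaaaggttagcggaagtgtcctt
RPS7: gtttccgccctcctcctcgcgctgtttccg
RPS16: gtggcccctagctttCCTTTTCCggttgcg
RPL39: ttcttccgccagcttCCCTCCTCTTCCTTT
RPL36A: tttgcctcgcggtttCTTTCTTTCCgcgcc
RPS9: gtggcgcttccgcgcCTCTTTCTCagtgac

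A C followed by 4 bases that are each C or T stood exactly at the annotated start in 40 of 63 members (63.5%), against 4.60% of all 15843 protein-coding promoters of the same length. The start base was C in 69.8% of members and in 11.3% of all promoters. From 5 bases before to 10 bases after the start, CTTTC was found in 36.5% of members and 2.42% of all promoters, and CTTTT, which can overlap it, in 17.5% and 1.65%. TATAA within the 40 bases before the start, read on the transcribed strand, was found in 9.52% of members and 5.86% of all promoters. CCGGAA, the core of the ETS family's binding motif, was found on either strand of the 250 bases before the start in 46.0% of members and 19.3% of all promoters. Among 9988 other protein-coding genes that were tested for expression, the shares were 24.3% for CCGGAA, 2.92% for TATAA and 4.84% for the C with 4 pyrimidines. These are matches of letters in annotated windows, and the start sites used in these cells were not measured.

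The libraries held 13975173 to 22051705 reads on genes. VIRMA itself had 1566, 1989.9 and 2169.7 in sg2, 1437, 1559.6 and 1613 in sg1 and 2196, 2122 and 2689 in NTC (adjusted p = 0.237 for sg2 and 0.0718 for sg1, both against NTC), so its RNA was still present in every knockout library. Of the markers of this line, VIM, CD44, AXL, CAV1 and MSN had normalized counts of 3684 or more in every library, while ESR1, PGR and FOXA1 stayed at or below 7.07. Of the other markers listed as low or absent in this line, CDH1 had 4.94 to 19.7, GATA3 5.23 to 42.4 and EPCAM 92.3 to 316, and ERBB2 was present in every library, at 911 to 1820. A pair of knockout libraries stood apart from their groups. Along the main axis of a principal component analysis of all tested genes (53.3% of the variance), sg2-1 lay at 29.6, nearer to the sg1 libraries (46.1 to 56.8) than to sg2-2 and sg2-3 (-68.6 and -77.2), with the NTC libraries at -16.0 to -9.91. Of the 4 markers of other cell types, 3 were highest in the library sg1-3, with normalized counts of 108 for the leukocyte gene PTPRC, 51.3 and 198 for the fibroblast genes DCN and PDGFRB, against highest values of 17.7, 5.30 and 84.0 elsewhere. The endothelial gene PECAM1, at 235 to 869 over all libraries, was not. Results are therefore given with and without sg2-1, and those without both libraries are at the end.

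Ribosomal protein messages took up a larger part of the reads in 2 of the sg2 libraries, and a smaller part in all sg1 libraries, than in any NTC library. Their share of gene reads was 3.27%, 5.55% and 5.74% in sg2, 2.88%, 2.86% and 3.03% in sg1 and 4.18%, 4.31% and 4.46% in NTC. The sg1 libraries all lay below the NTC libraries, and sg2 was split, with sg2-1 below and sg2-2 and sg2-3 above NTC. In RNA from bulk cells, fewer cells with a message and less of it per cell cannot be told apart. The means were 4.85% ± 1.38 in sg2, 2.93% ± 0.0951 in sg1 and 4.31% ± 0.141 in NTC (SD, n = 3 each). Exact 95% binomial intervals, which cover counting error only, reach at most 0.012 percentage points to either side. The share showed the same order after small RNA and mitochondrial genes were left out of the total, at 4.88% ± 1.39, 2.94% ± 0.0943 and 4.34% ± 0.148 in sg2, sg1 and NTC (SD, n = 3 each). Reads on genes annotated as small RNAs moved alongside, with 7.42, 34.0 and 45.0 per 10000 gene reads in sg2, 7.45, 6.90 and 8.91 in sg1 and 14.1, 16.2 and 24.2 in NTC. Their part in the result was not tested.

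**Figure D1:**
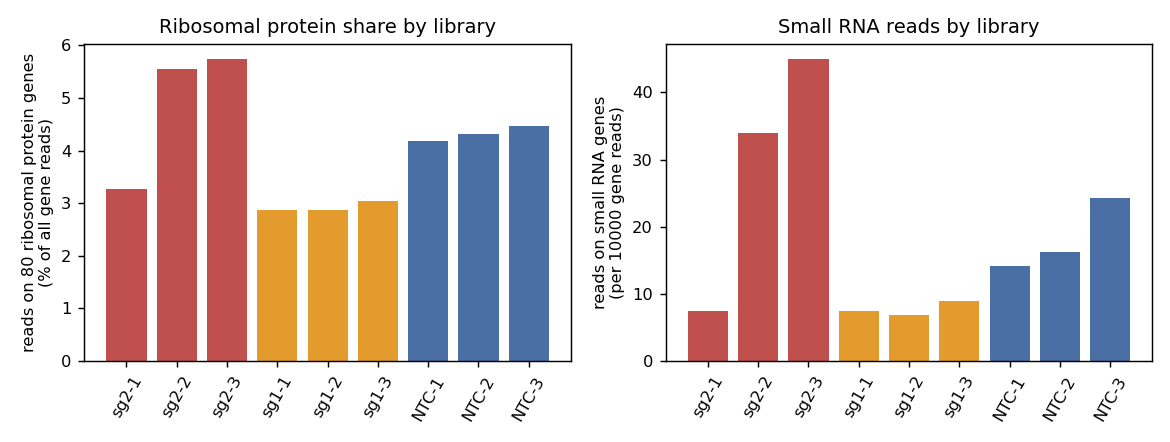
The left panel plots the share of gene reads on the 80 ribosomal protein genes (percent) and the right panel the reads on small RNA genes (per 10000 gene reads), 1 bar per library. In both panels sg2-2 and sg2-3 are the highest bars, at 5.55% and 5.74% on the left, and sg2-1 lies with the sg1 libraries below every NTC bar.

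The shift ran through nearly the whole set. Values below are normalized counts, gene reads divided by the authors' factor for each library, and differences are on the scale of log2(normalized count + 1), given with their standard error after the ± sign where a test was made. The filter asked for 3 or more libraries with a normalized count of 10 or more, and it was passed by 78 members and by 15965 genes in all. Relative to the NTC mean, the median member lay at -0.61 in sg2-1, 0.48 in sg2-2 and 0.49 in sg2-3, at -0.82, -0.78 and -0.77 in the sg1 libraries, and at -0.05, -0.04 and 0.09 in the NTC libraries. In sg2-1, 72 members lay below the range of the NTC libraries (39.9% of all tested genes did), whereas in sg2-2 and sg2-3, 72 and 73 lay above it (41.6% and 41.9% of all). In sg1-1, sg1-2 and sg1-3, 75, 73 and 75 members lay below it (41.6%, 39.2% and 40.8% of all). The library sg2-3 held the highest value of the 9 libraries for 54 members and sg2-2 for 19, and the lowest value was in an sg1 library for 75 members, 31 of them in sg1-1. Within a group the median member spanned 1.16 in sg2, 0.13 in sg1 and 0.17 in NTC between its lowest and highest library (log2), and 0.06 between sg2-2 and sg2-3. In 76 of the 78 members sg2-1 lay below both other sg2 libraries.

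**Figure D2:**
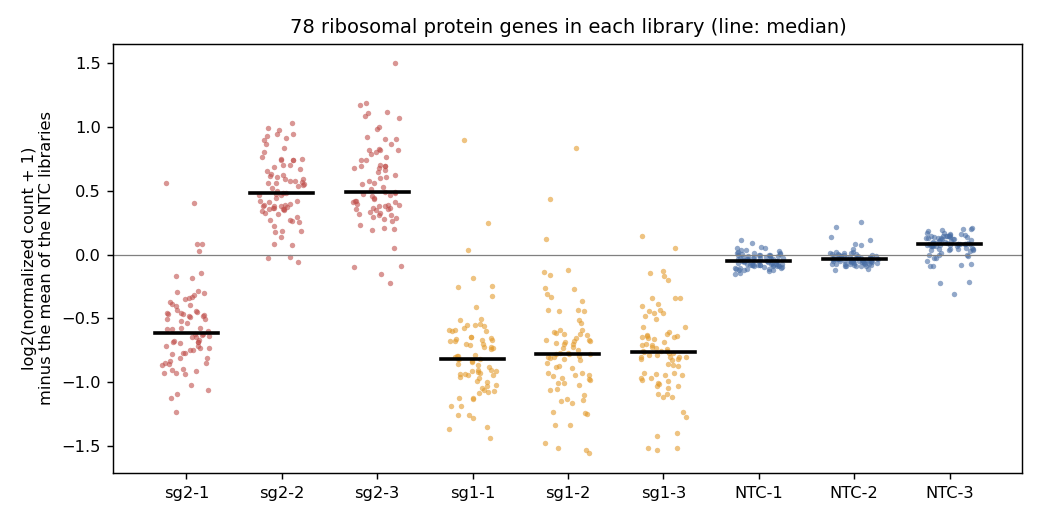
Each point is 1 of 78 ribosomal protein genes in 1 library, as log2(normalized count + 1) minus the mean of the NTC libraries, and the black line is the median of the library. The median lies at 0.48 and 0.49 in sg2-2 and sg2-3, at -0.61 in sg2-1 and between -0.82 and -0.77 in the sg1 libraries.

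Other short genes had medians nearer to 0. Among 2211 other protein-coding genes that span under 10 kb, the median lay at -0.03, 0.13 and 0.10 in sg2, at -0.12, -0.07 and -0.10 in sg1 and within 0.03 of 0 in NTC. Genes spanning 100 kb or more had medians from -0.07 to 0.03 in the knockout libraries. The 74 tested genes of the mitochondrial ribosome, which are encoded in the nucleus, had medians of -0.16, 0.68 and 0.75 in sg2 and of -0.44, -0.46 and -0.47 in sg1. Both kinds of ribosomal protein thus split the sg2 libraries the same way, the mitochondrial ones with a higher median than the cytosolic ones in every knockout library.

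In sg1 cells ribosomal protein messages stood below their NTC level. The median member differed by -0.78 from NTC, against -0.01 over all tested genes, 76 of 78 members were below 0, and the differences ran from -1.50 for RPS21 to 0.51 for RPS9. In 73 members every sg1 library lay below every NTC library (29.4% of all tested genes did), and in 0 members every sg1 library lay above (22.9% of all). In the fit of all 9 libraries, limma called 0 members lower and 0 higher at an adjusted p below 0.05 (0.0814% and 0.113% of all tested genes), with 64 lower at an unadjusted p below 0.05 (17.0% of all). edgeR called 0 lower and 0 higher as well (0.0814% and 0.0877% of all), with 66 lower unadjusted (16.5% of all), and DESeq2 called 48 lower (8.18% of all). The count rested on sg2-1, which is part of the shared estimate of the spread although it is not compared here. Without it limma called 73 members lower and 0 higher (24.4% and 16.2% of all tested genes), all but RPL11, RPL17, RPL28, RPL36A and RPS9, and with only the sg1 and NTC libraries 72 lower (22.3% of all). When sg2 and sg1 libraries of the same number were treated as pairs (a replicate block, chosen from these same data), it called 32 lower (4.25% of all).

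The members that lay lowest in sg1 were RPS21, RPS3A and RPL39. RPS21, a 40S protein, had 3306, 13124 and 13503 in sg2, 2662, 2499 and 2493 in sg1 and 6619.8, 7081 and 7994 in NTC. RPS3A, a 40S platform protein, had 828, 1964 and 2016 in sg2, 653, 571 and 587 in sg1 and 1547, 1701 and 1810.5 in NTC. RPL39, a very small protein of the 60S exit tunnel, had 5232, 15426 and 15692 in sg2, 4369, 3891 and 3899 in sg1 and 10201, 10638 and 12733 in NTC. In all 3 genes the sg1 libraries lay far below the NTC libraries with a narrow spread, sg2-1 lay between them and sg2-2 and sg2-3 above NTC. Their differences between sg1 and NTC were -1.50 ± 0.44 (adjusted p = 0.0864) for RPS21, -1.48 ± 0.29 (adjusted p = 0.0607) for RPS3A and -1.46 ± 0.35 (adjusted p = 0.0695) for RPL39. RPS29, a zinc-binding 40S protein, had 2373, 6184 and 6345 in sg2, 2064, 1779 and 1876 in sg1 and 4444, 4769 and 5703 in NTC, a difference of -1.38 ± 0.32 (adjusted p = 0.0684) between sg1 and NTC. For each of these 4 genes the sg1 and NTC ranges were apart.

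In sg2 cells the set did not move one way. The median member differed by 0.16 from NTC (0.03 over all genes), 58 of 78 members were above 0, and the differences ran from -0.37 for RPL13A to 0.67 for RPS2. limma called 0 members higher and 0 lower (4.19% and 4.57% of all tested genes), with 3 higher at an unadjusted p below 0.05, RPL7L1, RPL17 and RPS2 (13.6% of all). edgeR called 0 higher and 0 lower as well (4.70% and 5.21% of all), with 5 higher unadjusted, RPL22L1, RPS2, RPL7L1, RPL11 and RPL17 (14.0% of all), and DESeq2 called 2 higher, RPS2 and RPL7L1 (8.94% of all). Every sg2 library lay above every NTC library in 1 tested member, RPL7L1 (13.6% of all), and below it in 0 (14.3% of all). Without sg2-1, limma called 69 members higher and 0 lower (26.0% and 18.8% of all), with a median difference of 0.49. The 9 members not called in that fit included RPL10, RPL13A, RPL22, RPL36A, RPLP2, RPS10, RPS3A and RPS9.

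RPS2, a 40S protein at the entry of the messenger RNA channel, had 7222, 16760.0 and 18496 in sg2, 5414, 6048 and 6283 in sg1 and 7776, 7778 and 9162 in NTC. RPS16, a 40S protein that reaches toward the peptidyl site, had 2754, 7554 and 10836 in sg2, 1817, 2477 and 2594 in sg1 and 3767, 4145 and 3611 in NTC. For both genes sg2-1 lay below the NTC libraries and the other 2 sg2 libraries far above them. The differences between sg2 and NTC were 0.67 ± 0.30 (adjusted p = 0.188) for RPS2 and 0.67 ± 0.40 (adjusted p = 0.332) for RPS16. At the other end, RPL13A, a 60S protein that also hosts 4 snoRNAs, had 10744, 19212 and 17939 in sg2, 10580.3, 10167 and 10062 in sg1 and 19480.2, 18748 and 21837 in NTC. RPL10, the 60S protein whose loading ends subunit maturation, had 8944, 14415 and 13789 in sg2, 8427, 8297 and 7616 in sg1 and 14542, 13767 and 15729 in NTC. In both genes sg2-2 lay within the range of NTC, sg2-3 within or just below it, and sg2-1 far below NTC, close to sg1. RPL13A differed from NTC by -0.37 ± 0.21 (adjusted p = 0.292) in sg2 and -0.96 ± 0.21 (adjusted p = 0.0638) in sg1. RPL10 differed from NTC by -0.27 ± 0.18 (adjusted p = 0.377) in sg2 and -0.85 ± 0.18 (adjusted p = 0.0638) in sg1.

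**Figure D3:**
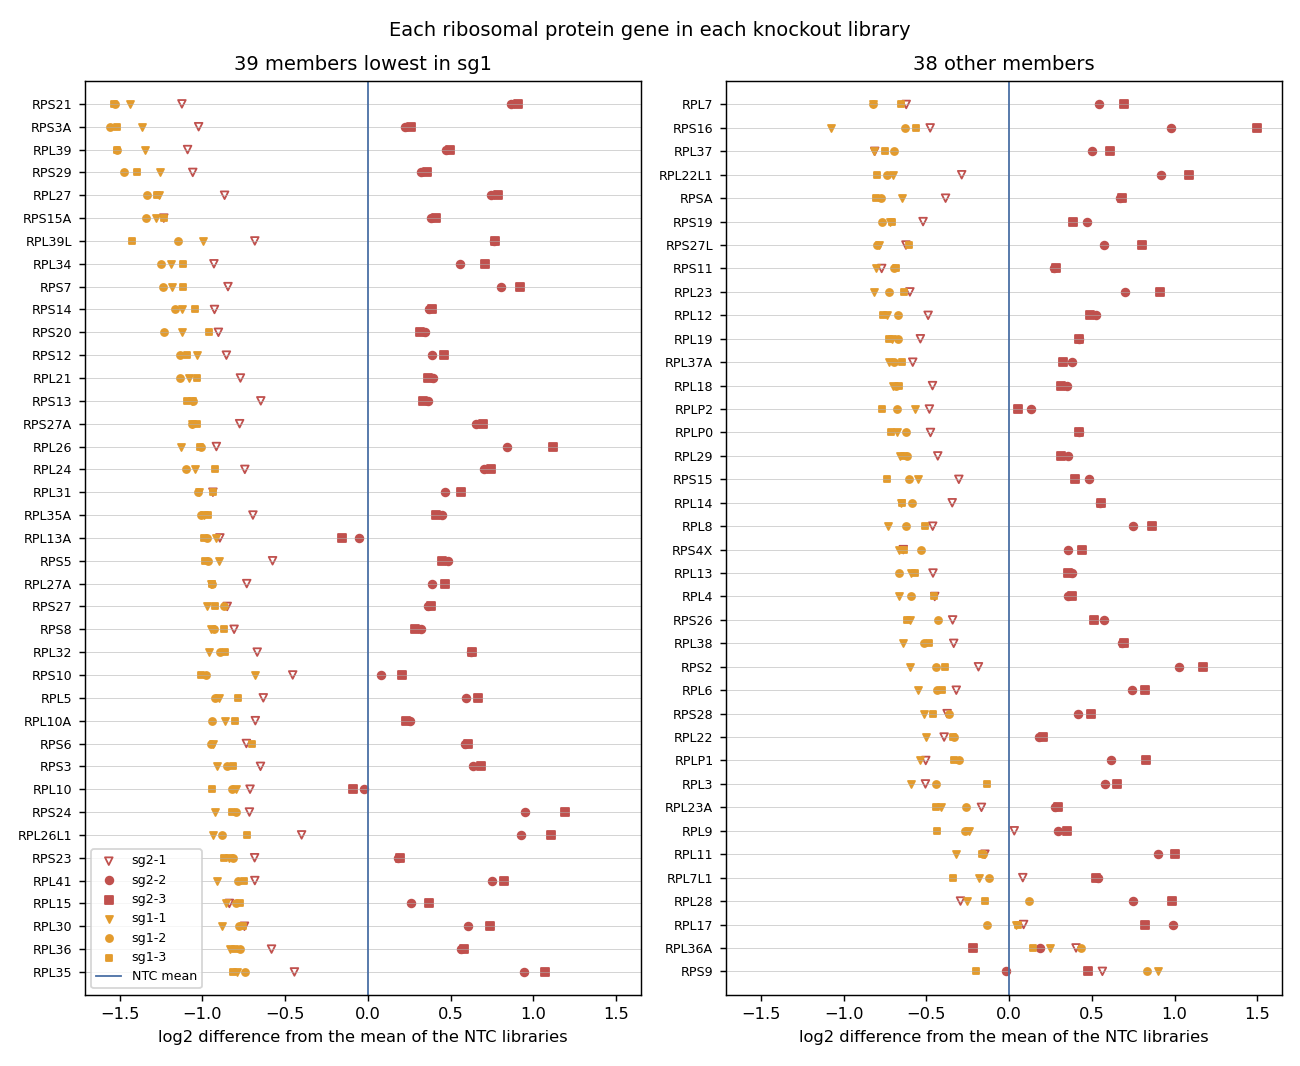
Each row is 1 of 77 tested ribosomal protein genes and each symbol 1 knockout library, as log2(normalized count + 1) minus the mean of the NTC libraries, which is the vertical line. Rows are ordered by the difference of sg1 from NTC, from -1.50 for RPS21 at the top left to 0.51 for RPS9 at the bottom right, and the open triangles of sg2-1 lie nearer to the sg1 symbols than to those of sg2-2 and sg2-3 in most rows.

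The guides differed from each other in most members. Compared directly, sg2 exceeded sg1 by a median of 0.93, against 0.00 over all genes, and 76 of 78 members were above 0. limma called 65 of 78 members higher in sg2 and 0 lower (18.3% and 11.5% of all tested genes). edgeR called 68 and DESeq2 74 (17.8% and 22.1% of all), and the fit with the replicate block called 75 (22.5% of all), all but RPL17, RPL36A and RPS9. In 62 members every sg2 library lay above every sg1 library (23.7% of all). Without sg2-1 the median difference was 1.34 and 76 members were called (34.2% of all), all but RPL36A and RPS9. The count was not stable to the loss of other libraries: limma called 0 without any one of sg2-2, sg2-3, sg1-1, sg1-2 or sg1-3, 39 without NTC-1 and 41 without NTC-2, and the loss of any one of those knockout libraries likewise ended each call between the guides named below for genes outside the set. The shares of all tested genes in these leave-one-out fits are not given here. A loss of calls over all genes therefore cannot be told apart from one in this set. With only the sg2 and sg1 libraries in the fit, limma called 0 members higher (0% of all), and 70 were higher at an unadjusted p below 0.05 (22.1% of all).

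The 6 largest differences were those of RPS21, RPL27, RPS7, RPL39L, RPS16 and RPL39. For RPS21, whose values are above, sg2 exceeded sg1 by 1.71 ± 0.44 (adjusted p = 0.0239), which is 3.28-fold. RPL27, a 60S protein, had 5826, 17776 and 18340.0 in sg2, 4434, 4211 and 4389 in sg1 and 9768, 10249 and 11971 in NTC, a difference of 1.51 ± 0.36 (adjusted p = 0.0209). RPS7, a 40S protein, had 2461, 7716 and 8369 in sg2, 1943, 1872 and 2042 in sg1 and 4158, 4489 and 4640.4 in NTC, a difference of 1.47 ± 0.38 (adjusted p = 0.0236). In both genes sg2-1 was the lowest sg2 library, above all sg1 libraries and below all NTC libraries. RPS16 and RPL39 differed by 1.42 ± 0.40 (adjusted p = 0.0296) and 1.42 ± 0.35 (adjusted p = 0.0228). Of the start sequences shown above, those of RPS21, RPS16 and RPL39 begin with a pyrimidine run of at least 5 bases and those of RPL27 and RPS7 do not.

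RPS9 and RPL36A were the 2 members not higher in sg2 than in sg1. RPS9, a 40S protein that binds early in assembly, had the few counts of 19.4, 12.7 and 18.3 in sg2, 24.9, 23.7 and 11.0 in sg1 and 12.8, 12.1 and 13.6 in NTC, with overlapping groups and a difference of -0.17 ± 0.36 (adjusted p = 0.722). RPL36A, a 60S protein at the exit site for transfer RNA, had 256, 220.3 and 166 in sg2, 229.8, 262 and 214 in sg1 and 194, 225 and 167 in NTC, again with overlap of all groups and a difference of -0.15 ± 0.19 (adjusted p = 0.538). The start of both begins with a C and a pyrimidine run, as shown above. RPL36AL, a near copy of RPL36A encoded elsewhere, had 4839, 8039.6 and 8202 in sg2, 4385, 4920.4 and 4128 in sg1 and 4922, 4777 and 4313 in NTC, and sg2 exceeded sg1 by 0.61 ± 0.19 (adjusted p = 0.0407). RPL22, a 60S RNA-binding protein, had the smallest positive difference among the members, 0.39 ± 0.16 (adjusted p = 0.0885), with 2792, 4154 and 4223 in sg2, 2583, 2905 and 2892 in sg1 and 3974, 3606 and 3441 in NTC. Its sg2-1 value lay among the sg1 libraries and the other 2 sg2 libraries above NTC.

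Averaged over both guides, the median difference from NTC was -0.31, and 71 of 78 members were below 0. limma called 0 members lower and 0 higher (2.25% and 1.74% of all tested genes), with 15 lower at an unadjusted p below 0.05 (11.1% of all). edgeR called 1 lower, RPL13A (2.72% of all), and DESeq2 3 lower, RPS3A, RPL13A and RPL10 (5.33% of all). Without sg2-1, 29 members were called lower and 3 higher, RPS2, RPL11 and RPL28 (11.6% and 10.1% of all).

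The subunits behaved alike in direction. The 29 tested 40S members had median differences of 0.12 for sg2 and -0.86 for sg1, both against NTC, and 26 of them were called higher in sg2 than in sg1 (18.3% of all tested genes). The 49 tested 60S members had medians of 0.19 for sg2 and -0.72 for sg1, and 39 were called. No test was made between the subunits.

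The ribosomal stalk, which recruits translation factors, is built of RPLP0, RPLP1 and RPLP2 on a base shared with RPL12. RPLP0 had 19717, 36792 and 36655 in sg2, 17158, 17789.9 and 16738 in sg1 and 25730.1, 26429.9 and 30303 in NTC. RPLP1 had 3671, 7970.0 and 9244 in sg2, 3579, 4211 and 4124 in sg1 and 4902, 4942 and 5826 in NTC. RPLP2 had 5798, 8889 and 8391 in sg2, 5449, 5072 and 4745 in sg1 and 7807, 7958 and 8549 in NTC. In each of these the sg1 libraries lay below the NTC libraries and sg2-2 was above sg2-1. RPL12, at the base, had 8518, 17185 and 16750.3 in sg2, 7172, 7509 and 7053 in sg1 and 11629, 11586 and 12703 in NTC, with the same order. sg2 exceeded sg1 by 0.79 ± 0.23 (adjusted p = 0.0318) for RPLP0, 0.57 ± 0.16 (adjusted p = 0.0304) for RPLP2 and 0.90 ± 0.24 (adjusted p = 0.0255) for RPL12, and RPLP1 did not pass the threshold at 0.71 ± 0.29 (adjusted p = 0.0823). In RPLP2 the libraries sg2-2 and sg2-3 lay close to NTC, while in RPLP1 they were far above it.

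RPL5 and RPL11 form with 5S ribosomal RNA a particle of the 60S subunit that, when free, binds the p53 inhibitor MDM2. RPL5 had 9608, 22498 and 23607 in sg2, 7967, 7850.2 and 8644 in sg1 and 14869, 14268 and 15577 in NTC. RPL11 had 13618, 28128 and 30134 in sg2, 12050.5, 13482 and 13433 in sg1 and 16017, 16565 and 12914 in NTC. RPL5 followed the median of the set in sg1, whereas the sg1 libraries of RPL11 overlapped the NTC libraries, with differences between sg1 and NTC of -0.87 ± 0.29 (adjusted p = 0.102) and -0.22 ± 0.27 (adjusted p = 0.591). Both were called higher in sg2 than in sg1, by 1.08 ± 0.29 (adjusted p = 0.0265) and 0.80 ± 0.27 (adjusted p = 0.0485).

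Of the ribosomal proteins made as fusions with ubiquitin or a ubiquitin-like domain, RPS27A belongs to the set and FAU is named otherwise. RPS27A had 5378, 14464 and 14877 in sg2, 4411, 4405 and 4502 in sg1 and 8845, 9245 and 9542 in NTC. FAU had 3205, 6795 and 7290.3 in sg2, 2580.1, 2552 and 2648 in sg1 and 3882, 4249 and 4559 in NTC. The sg1 libraries of both lay below the NTC libraries, and sg2-2 and sg2-3 above them. Both were called higher in sg2 than in sg1, by 1.24 ± 0.32 (adjusted p = 0.0246) for RPS27A and 1.06 ± 0.26 (adjusted p = 0.0222) for FAU. RACK1, a scaffold on the 40S head, had 19567, 31583 and 29338 in sg2, 17498, 18365 and 17368 in sg1 and 26314, 24661 and 27032 in NTC and was called as well, by 0.57 ± 0.18 (adjusted p = 0.0433).

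Around the tunnel through which the nascent chain leaves the 60S subunit, 7 of 8 members were called higher in sg2 than in sg1, all but RPL17. Of all tested genes 18.3% were called higher, and of the whole set 65 of 78 members. RPL17 had 96.4, 181 and 161 in sg2, 93.2, 82.5 and 94.2 in sg1 and 94.5, 108 and 72.8 in NTC, so that its sg1 and NTC libraries overlapped, and its difference of sg2 from sg1 was 0.65 ± 0.25 (adjusted p = 0.0729). RPL35, beside the exit, had 7587, 19866 and 21657 in sg2, 5967, 6161 and 5858 in sg1 and 9348, 10278 and 11454 in NTC, with sg2-1 below the NTC libraries. Its difference between sg2 and sg1 was 1.31 ± 0.33 (adjusted p = 0.0229).

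Several ribosomal proteins have a related form encoded by a paralogue, and some of these forms are expressed in fewer tissues. The 5 forms that were tested were all called higher in sg2 than in sg1 (18.3% of all tested genes). So were 5 of the 7 standard forms, all but RPL3 and RPL22, and 65 of the 78 members of the set. RPL39L, the form of RPL39 best known from testis, had 350.1, 956 and 958 in sg2, 282, 253 and 209 in sg1 and 529, 528 and 639 in NTC. RPL22L1, the paralogue of RPL22, had 495, 1141 and 1287 in sg2, 371, 363 and 347 in sg1 and 604, 640.2 and 570.2 in NTC. RPL26L1, the paralogue of RPL26, had 275, 691 and 784 in sg2, 189, 197 and 219 in sg1 and 357, 383 and 350.5 in NTC. In these 3 genes the sg1 libraries lay below NTC, sg2-1 between both groups and the other 2 sg2 libraries above NTC. sg2 exceeded sg1 by 1.47 ± 0.34 (adjusted p = 0.0195) for RPL39L, 1.32 ± 0.29 (adjusted p = 0.0186) for RPL22L1 and 1.39 ± 0.32 (adjusted p = 0.0196) for RPL26L1.

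RPS27L, the p53-inducible paralogue of RPS27, had 845, 1938 and 2272 in sg2, 754, 747 and 858 in sg1 and 1335, 1340.0 and 1237 in NTC, and sg2 exceeded sg1 by 0.98 ± 0.30 (adjusted p = 0.0365). RPL7L1, related to RPL7 and active in the making of the 60S subunit, had 9821, 13446 and 13374 in sg2, 8164, 8515 and 7332 in sg1 and 9376, 9234 and 9223 in NTC. It was the member in which all sg2 libraries, sg2-1 included, lay above all NTC libraries while all sg1 libraries lay below them, with differences from NTC of 0.38 ± 0.15 (adjusted p = 0.131) in sg2 and -0.22 ± 0.15 (adjusted p = 0.324) in sg1. sg2 exceeded sg1 by 0.60 ± 0.15 (adjusted p = 0.0217) for this gene. Among the standard forms the differences of sg2 from sg1 were 1.42 for RPL39, 1.40 for RPL26, 0.97 for RPL7, 0.89 for RPS27, 0.58 for RPL10, 0.63 for RPL3 and 0.39 for RPL22. Differences between a paralogue and its standard form were not tested. RPL3L, the heart and muscle form of RPL3, did not pass the filter, at 4.42, 5.27 and 5.23 in sg2, 1.04, 2.45 and 2.60 in sg1 and 0, 2.02 and 0 in NTC.

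Of 15 members whose variants cause Diamond-Blackfan anaemia, an inherited failure of red cell production, 14 were tested and 13 were called higher in sg2 than in sg1, with a median difference of 0.97. The exception was RPL15, a 60S protein, at 0.74 ± 0.27 (adjusted p = 0.0611). Of all tested genes 18.3% were called higher. In the whole set 65 of 78 members were, with a median of 0.93, so these genes were close to the rest of the set.

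In 28 tested members the gene span holds 1 or more of 56 small nucleolar RNAs, which are cut from introns and guide modification of ribosomal RNA. These hosts had median differences from NTC of 0.09 in sg2 and -0.78 in sg1, and the 50 members without one had 0.19 in sg2 and -0.78 in sg1. Of the hosts 21 were called higher in sg2 than in sg1, and of the others 44 (18.3% of all tested genes). The difference between these classes was not tested.

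By start sequence, the 40 members with a C and at least 4 pyrimidines at the start had median differences of 0.12 for sg2 and -0.83 for sg1, both against NTC, and the 23 members with another annotated start had 0.19 for sg2 and -0.63 for sg1. The medians of sg2 minus sg1 were 1.00 and 0.80, with 34 of 40 and 19 of 23 members called (18.3% of all tested genes). The ranges between the quartiles overlapped, with quartiles of 0.75 and 1.15 for the TOP-like starts and 0.66 and 1.04 for the others. The annotated start is a single position per gene, and a TOP start a few bases away is counted here among the others.

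Other genes tied to ribosomal protein supply were taken from lists. All 15 genes for chaperones and assembly factors of ribosomal proteins were called higher in sg2 than in sg1, and 4 of them were also called higher in sg2 than in NTC (18.3% and 4.19% of all tested genes). BYSL, which matures the 40S subunit, had 907, 1105 and 1143 in sg2, 631, 664 and 564 in sg1 and 557, 689.8 and 627 in NTC, with all sg2 libraries above the rest, and exceeded NTC by 0.75 ± 0.14 (adjusted p = 0.00999) in sg2. LTV1, RIOK1 and TSR1 are 40S assembly factors as well. LTV1 had 315, 567 and 619 in sg2, 246, 267 and 249 in sg1 and 277, 269 and 233 in NTC, and sg2 exceeded NTC by 0.89 ± 0.23 (adjusted p = 0.0404). RIOK1 had 521, 846 and 875 in sg2, 351, 413 and 367 in sg1 and 428, 438 and 353 in NTC, and sg2 exceeded NTC by 0.85 ± 0.20 (adjusted p = 0.0286). TSR1 had 2397, 2632 and 2579 in sg2, 1909, 2205 and 1904 in sg1 and 1829, 2014 and 1707 in NTC, and sg2 exceeded NTC by 0.46 ± 0.11 (adjusted p = 0.0357). In all 3 genes every sg2 library lay above every NTC and sg1 library, and sg1 and NTC overlapped. The call was lost without NTC-1 or sg2-2 for BYSL, without any one library other than sg2-1 for LTV1 and TSR1, and without any one other than sg2-1 and sg1-3 for RIOK1. Of the 15 genes, 0 were called in sg1 against NTC. Of 18 initiation factors, 9 were called higher in sg2 than in sg1 and 0 lower (18.3% and 11.5% of all tested genes). Among those called in that list, the largest differences were 0.88 ± 0.21 (adjusted p = 0.0205) for EIF2S1, which encodes the alpha subunit of initiation factor eIF2, and 0.84 ± 0.23 (adjusted p = 0.0262) for EIF1AX, which takes part in the choice of the start codon. EIF3E, given below with the messages that have a TOP start, had a larger difference.

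Of 12 tested messages with a TOP start that encode no ribosomal protein, 3 were called higher in sg2 than in sg1, against 18.3% of all tested genes, and the median difference of the 12 was 0.31. A share this near to that of all genes is not a result about these messages. EEF1A1, the factor that brings aminoacyl-tRNA, had 50543, 85789 and 84259.7 in sg2, 45283, 43809.6 and 44674 in sg1 and 73287, 69059 and 78724 in NTC. EIF3E, a subunit of initiation factor eIF3, had 4953, 12489 and 14282 in sg2, 4211, 4079 and 4614 in sg1 and 8262, 8143 and 8551 in NTC. NAP1L1, a histone chaperone, had 9891, 17165 and 17697 in sg2, 8876, 9411 and 9424 in sg1 and 13944, 12526 and 13282 in NTC. In all 3 the sg1 libraries and sg2-1 lay below NTC and the other 2 sg2 libraries above. sg2 exceeded sg1 by 0.68 ± 0.22 (adjusted p = 0.0419) for EEF1A1, 1.16 ± 0.32 (adjusted p = 0.0286) for EIF3E and 0.64 ± 0.21 (adjusted p = 0.042) for NAP1L1. Of 13 genes that control TOP translation, 5 were called higher in sg2 than in sg1, namely CNBP, EIF4E, EIF4EBP1, MLST8 and RHEB, and 2 lower, TSC1 and TSC2 (18.3% and 11.5% of all tested genes), so that the share called lower was near that of all genes. RHEB, which activates mTORC1, differed by 0.92 ± 0.20 (adjusted p = 0.0183), and TSC1 and TSC2, which hold RHEB in check, by -0.64 ± 0.17 (adjusted p = 0.0267) and -0.86 ± 0.23 (adjusted p = 0.0271). EIF4EBP1 differed by 0.88 ± 0.21 (adjusted p = 0.0206). MTOR, RPTOR and LARP1 were not called, at 0.06 ± 0.10 (adjusted p = 0.676), -0.38 ± 0.20 (adjusted p = 0.162) and -0.37 ± 0.19 (adjusted p = 0.158). The activity of mTORC1 was not tested. TSC2 had 1571, 831 and 737 in sg2, 1697, 1856 and 1844 in sg1 and 1280.1, 1302 and 1319 in NTC, with sg2-2 and sg2-3 below NTC and sg2-1 and the sg1 libraries above it.

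**Figure D4:**
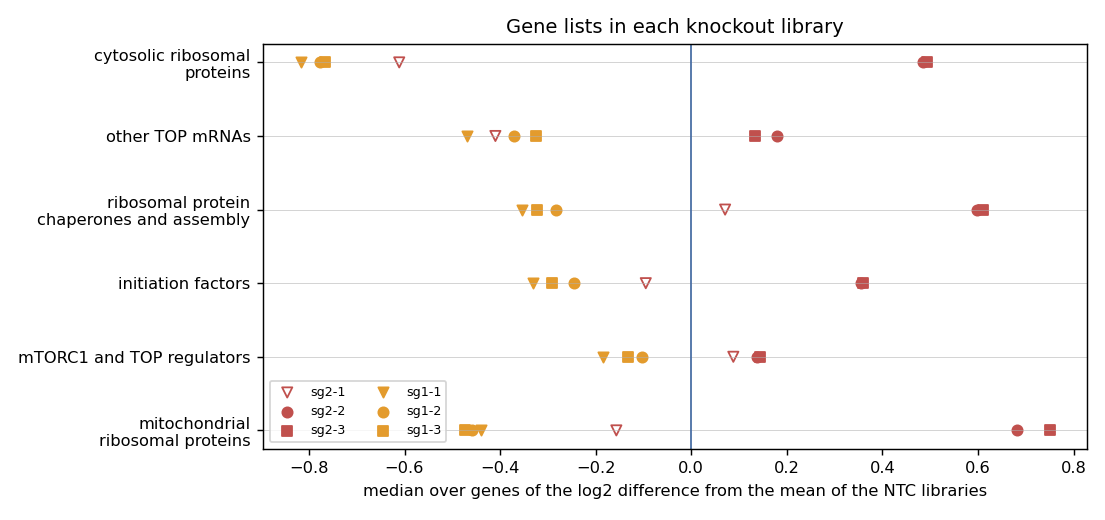
Each symbol is the median, over the tested genes of a list, of log2(normalized count + 1) minus the mean of the NTC libraries (vertical line), 1 symbol per knockout library. Cytosolic ribosomal proteins range from -0.82 in sg1-1 to 0.49 in sg2-3, and in the list of chaperones and assembly factors sg2-1 lies above 0, at 0.07.

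A further list held 8 genes for sensing unused ribosomal proteins, for rescuing stalled ribosomes and of the p53 pathway. Of these, 2 were called lower in sg2 than in NTC and 0 higher (4.57% and 4.19% of all tested genes), and CDKN1A was 1 of those lower. CDKN1A, the p53 target p21, had 2467, 1669 and 1568 in sg2, 2462, 2633 and 2295 in sg1 and 2741, 3139 and 2831 in NTC, a difference of -0.64 ± 0.17 (adjusted p = 0.0429) between sg2 and NTC. Every sg2 library lay below every NTC library, and the call was lost without any one library other than sg2-1. Between the guides, 1 of the 8 genes was called higher in sg2 than in sg1 and 1 lower (18.3% and 11.5% of all tested genes). Shares this near to those of all genes are not a result about the list. The gene called higher was HBS1L, a rescue factor for stalled ribosomes, with a difference of 0.65 ± 0.21 (adjusted p = 0.0416). MDA-MB-231 cells carry mutant p53. Of the mitochondrial ribosomal proteins 62 of 74 were called higher in sg2 than in sg1 (18.3% of all tested genes). Against NTC 2 were called higher in sg2, MRPL4 and MRPS2, a share below that of all tested genes (4.19%).

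Several members share sequence with pseudogenes, of which the table lists 542 for 69 members, and reads may be divided between them. All such pseudogenes together took 0.0125% to 0.0167% of gene reads in a library. Summed over the 9 libraries, pseudogene reads came to 46.7% of the gene's own for RPL17, 43.5% for RPL23A, 7.97% for RPL36A and 7.22% for RPS3A, and to more than 1% in 15 members, so the values of those members are uncertain. With the replicate block, limma did not call RPL17 and RPL36A between the guides. It called RPL23A and RPS3A higher in sg2 than in sg1 (adjusted p = 0.0173 and 0.00973). A link between pseudogene reads and the calls was not tested.

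Few ribosomal protein messages carried an m6A summit. In the KD list 1 of 78 tested members had a summit in its gene span (1.28%, exact 95% binomial interval 0.0325 to 6.94), against 30.1% of 12126 other tested protein-coding genes and 28.0% of those spanning under 10 kb. In the NTC list 3 of 78 had one (3.85%, 0.800 to 10.8), against 38.6% and 35.9%. The score of a summit below is the authors' −log10 value of a p or q value, and the labels do not say which. RPL31 had a summit in both lists, at chr2:101008053 in KD with a score of 9.44 and at chr2:101008081 in NTC with a score of 7.03, 28 bases apart, at a position that lies in the spans of 2 protein-coding genes. RPS29 had a summit at chr14:49577703 in NTC with a score of 7.39, 6715 bases before the annotated end of the gene. RPS24 had one at chr10:78054836 in NTC with a score of 4.17, 1970 bases before the end. Whether the summits lie in exons was not determined here. No KD summit lay in RPS24 or RPS29. At a score of at least 10, 0 members had a summit in either list, while 10.1% and 17.4% of the other coding genes did in KD and NTC. With 1 list per condition there is no replicate check, the depth of these libraries is unknown, and no comparison between KD and NTC was tested.

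In the 3 members with a summit the RNA levels followed the rest of the set. RPL31, a 60S protein near the exit tunnel, had 5495, 14556 and 15530.3 in sg2, 5179, 5174 and 5502 in sg1 and 9744, 10097 and 11839 in NTC. RPS24, a 40S protein, had 10849.5, 34373 and 40649 in sg2, 9388, 10241 and 10072 in sg1 and 16966, 18055 and 18489.8 in NTC. sg2 exceeded sg1 by 1.02 ± 0.33 (adjusted p = 0.0423) for RPL31, 1.32 ± 0.40 (adjusted p = 0.0352) for RPS24 and 1.25 ± 0.32 (adjusted p = 0.0238) for RPS29. In each, the sg1 libraries and sg2-1 lay below NTC and the other 2 sg2 libraries above.

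Leaving out sg1-3 together with sg2-1 gave counts close to those without sg2-1 alone, with 70 members called higher in sg2 than in NTC, 73 called lower in sg1 than in NTC and 76 called higher in sg2 than in sg1. The shares of all tested genes in that fit are not given here. Without sg2-1 alone they were 26.0%, 24.4% and 34.2%. The libraries left out were chosen from these same data, and fewer remain in sg2 and sg1 than in NTC. Scaling all libraries to equal reads outside the ribosomal protein genes put the median of all tested genes at 0.18 in sg1 against NTC and at -0.21 in sg2 against sg1, and relative to that the median member stood at -0.76 in sg1 against NTC and at 0.93 in sg2 against sg1. Under that scaling RPL17 lay above NTC in sg1, at 0.18.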

How the data were processed

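RNA was sequenced from 3 libraries each of sg2, sg1 and NTC, and m6A summits came as 1 deposited list each for KD and NTC. Per the submitters' processing notes, the tools were FastQC 0.11.8, cutadapt, STAR, HTSeq, DESeq2 and MACS2 on hg38, named without roles, and settings for strand and multi-mapped reads are not given in the sources used here. The authors deposited gene read counts divided by a factor per library, a signal called normalized count here. Whole reads were recovered from these values within 0.1 read; for NTC-2 the factor lies near 1, so its recovery is less certain. The deposited summit lists give positions and the authors' −log10 score.

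Values were tested as log2(normalized count + 1) with limma 3.58.1 (R 4.3.3), with a trended prior variance, all 9 libraries in 1 fit and Benjamini-Hochberg adjustment over the 15965 genes that reached a normalized count of 10 in 3 or more libraries, at a threshold of 0.05. The design had allowed for raw counts, which the table did not hold. edgeR 4.0.16 (quasi-likelihood test) and DESeq2 1.42.0 were run on the recovered reads. Over all genes, edgeR called 13 lower and 14 higher in sg1 against NTC, 832 lower and 751 higher in sg2 against NTC, and 1545 lower and 2835 higher in sg2 against sg1. The code was tested on simulated data. Differences on this scale understate changes of low genes, and p-values measure the spread between libraries, which may be technical. Library totals are given with the results.

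Replicate numbers were checked for pairing. Same-numbered sg2 and sg1 libraries deviated together, with correlations of 0.156 to 0.258, whereas other sg2 and sg1 pairs had -0.303 to -0.00965 and same-numbered knockout and NTC libraries -0.131 to 0.0202. By these correlations the numbers paired sg2 with sg1 only, from the data and not from the labels, and a fit with that block was added. Deviations from a group mean cancel within the group. Positive same-number correlations therefore go with negative ones in the other pairs, which are not separate support. The block was chosen from the same values that it was fitted to, so its counts are not independent of that choice. Other alternatives were TMM scaling, equal reads outside the set, no filter, a pseudocount of 10, only the groups compared, and leaving libraries out.

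The members and gene lists were chosen with earlier results of these data known. Genes named with values were those with the largest differences or farthest from the median of the set, those of the stalk, 5S particle, ubiquitin fusion and paralogue lists, those with a summit, and up to 4 of each other list. A few genes are not reported here. A ranking by level per length was not made. Summits were placed by position in RefSeq gene spans of GRCh38.p14.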

Additional observations from a re-analysis of the deposited data

Results flagged for a closer look

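The 2 knockout lines were made against the same gene, and a direct comparison of them found a difference. In that test by limma over all genes, 65 members passed the threshold, all higher in sg2 than in sg1, against 18.3% of all tested genes called higher and 11.5% called lower. The largest differences on the log2 scale, each sg2 minus sg1, were 1.71 for RPS21, 1.51 for RPL27, 1.47 for RPS7, 1.47 for RPL39L, 1.42 for RPS16 and 1.42 for RPL39. In each of these genes sg2-1 was the lowest sg2 library. No explanation was tested.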

How the results depend on the processing

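With limma and all 9 libraries 0 members were called in sg1 against NTC, while DESeq2 called 48, equal reads outside the set 4 (RPS3A, RPL13A, RPS13 and RPL10), only the groups compared 72 and the replicate block in sg2 and sg1 32. Without sg1-3 and sg2-1 together it was 73, and leaving out 1 library at a time gave 0 to 73. In sg2 against NTC the count was 0, DESeq2 called 2, equal reads 1 (RPL7L1), both libraries left out 70 and 1 library left out 0 to 69. For the mean of both guides the count was 0, DESeq2 called 3, TMM scaling 1 and edgeR 1 (RPL13A in both), equal reads 2 (RPL13A and RPL10), both libraries left out 35 and 1 library left out 0 to 32. Between sg2 and sg1 the count was 65, only the groups compared gave 0 and 1 library left out 0 to 76, and the other settings gave 52 (no filter) to 76. The replicate number as a block over all 9 libraries gave 0 members against NTC and 63 between sg2 and sg1. Shares of all tested genes are given in the results for some of these settings only. Elsewhere a count alone does not separate the set from all genes. The median difference with 1 library left out ran between -0.04 and 0.49 in sg2 against NTC and between -0.81 and -0.76 in sg1 against NTC.

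The share of gene reads with 4 ribosomal genes named otherwise added was 5.14% in sg2, 3.14% in sg1 and 4.58% in NTC. At a summit score of at least 10, 0 members had a summit in KD and 0 in NTC. With summits in the span of 1 coding gene only, 0 had one in KD and 2 in NTC.

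RPL17, RPL36A and RPS9, all near 0, changed sign. RPL17 in sg1 against NTC was at 0.0049 with DESeq2, 0.023 with TMM scaling, 0.0057 with edgeR and 0.18 with equal reads, and from -0.17 to 0.11 with 1 library left out, above 0 without NTC-1, NTC-2 or sg1-2. Between sg2 and sg1 with 1 library left out, RPL36A ran from -0.29 to 0.020 and RPS9 from -0.53 to 0.024. Of 1704 alternative values for 53 named genes, 1225 kept direction and side of the threshold, 332 lost a call, 137 gained one and 10 changed sign. The cause of these changes was not tested. With 3 libraries a group and 1 summit list per condition, the number of libraries limits the precision, and the depth of the pull-down is unknown.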
